A study of Mus musculus with 30 samples.

Results

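The calcitonin receptor family comprises 5 genes on these arrays: the receptors Calcr and Calcrl and the receptor activity-modifying proteins Ramp1, Ramp2 and Ramp3. They were taken by name, as the full set of receptors and RAMP partners, out of 19938 genes that had a probe set of their own. Each was read by 1 probe set (Calcr 10542929, Calcrl 10484371, Ramp1 10348537, Ramp2 10381298 and Ramp3 10374197). A further probe set, annotated to both Malat1 and Ramp2, was not used for Ramp2.

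The receptors are G protein-coupled receptors of class B, which bind peptide hormones. Calcr alone binds calcitonin, and with a RAMP it forms amylin receptors. Calcrl reaches the cell surface only with a RAMP, forming the receptor for calcitonin gene-related peptide with Ramp1 and receptors for adrenomedullin with Ramp2 or Ramp3. Both signal mainly through stimulatory G protein, cAMP and protein kinase A. Calcr is a marker of quiescent satellite cells, which are the resident stem cells of muscle, whereas Calcrl and Ramp2 are well known from blood and lymphatic vessel endothelium.

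Gene expression was measured in satellite cells sorted from mouse hindlimb, with 10 groups of 3 arrays each (30 arrays, Affymetrix Mouse Gene 1.0 ST). Quiescent satellite cells (QSCs) came from uninjured muscle and activated satellite cells (ASCs) from muscle injured with BaCl2. VCAM cells, from C57BL6 wildtype mice, were selected for VCAM and against the surface proteins CD31, CD45 and Sca1. YFP cells were sorted for YFP alone from Pax7CreER/+;ROSA26eYFP/+ mice given tamoxifen, in which Cre expressed from Pax7 marks satellite cells and all their later progeny, whether or not these still express Pax7. Young mice, aged 2 to 3 months, gave QSCs and ASCs at 36, 60 and 84 h after injury in both sorts. Old mice, aged 22 to 24 months, gave QSCs and ASCs at 60 h by the VCAM sort only. Sort and genotype therefore changed together, and so did the tamoxifen given to the YFP mice. No label states if arrays of 1 group are separate animals. The p-values measure the spread between these arrays, which may be technical.

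Levels are log2 intensities, and a difference of 1 is a 2-fold change. Levels are compared between groups for the same probe set and not between genes. A gene was called at an adjusted p under 0.05 and a fold of at least 1.5 in limma, fitted over all 19938 genes and 30 arrays, and "rose" and "fell" are used only of called genes. In a sorted bulk sample, fewer cells of a type and less RNA per cell cannot be told apart.

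The sequences upstream of the transcription starts are shown for Calcr and Calcrl, the receptors whose levels moved most. RefSeq windows in GRCm38.p6 were found for 4 of the 5 members (Calcr, Calcrl, Ramp1 and Ramp3), with a pair of starts for Calcr. Each is the 250 bases before a start, 5′ to 3′ on the gene's strand. The Calcr windows lie at chr6:3763624-3763873 and chr6:3764714-3764963 and the Calcrl window at chr2:84425267-84425516, all on the minus strand. Capitals mark matches, on either strand, to TGGGAA (the core bound by RBPJ, the Notch effector), CANNTG (the E-box of bHLH factors such as MyoD) or TGACG (the half-site bound by CREB, a target of protein kinase A).
Calcr, first start: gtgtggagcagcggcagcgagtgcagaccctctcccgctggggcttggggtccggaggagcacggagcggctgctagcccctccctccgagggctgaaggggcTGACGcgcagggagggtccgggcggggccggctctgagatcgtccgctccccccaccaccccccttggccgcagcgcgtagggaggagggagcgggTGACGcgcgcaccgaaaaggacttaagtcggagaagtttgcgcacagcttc
Calcr, second start: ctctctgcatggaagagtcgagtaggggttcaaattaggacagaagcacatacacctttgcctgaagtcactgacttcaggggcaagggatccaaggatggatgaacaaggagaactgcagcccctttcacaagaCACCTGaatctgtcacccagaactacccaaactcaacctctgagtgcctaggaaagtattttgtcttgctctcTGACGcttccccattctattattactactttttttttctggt
Calcrl: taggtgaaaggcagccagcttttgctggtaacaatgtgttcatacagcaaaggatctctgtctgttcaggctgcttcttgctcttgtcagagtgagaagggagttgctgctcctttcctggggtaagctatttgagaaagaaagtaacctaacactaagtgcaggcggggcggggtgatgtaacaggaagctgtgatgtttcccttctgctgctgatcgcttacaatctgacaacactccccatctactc
The first Calcr window held 2 TGACG matches and the second held 1 TGACG and 1 CANNTG match. The Calcrl window held none of these letters. Of 32851 such windows, 21.6% held TGGGAA, 66.2% CANNTG and 17.8% TGACG. The GC content was 70.8% in the first Calcr window, 46% in the second and 48.4% in that of Calcrl.

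The range of group means was widest for Calcr and narrowest for Ramp1. The highest and lowest group means of Calcr were 5.13 apart on the log2 scale (35-fold), a wider range than that of 99.9% of genes. The range was 3.22 for Calcrl (wider than 97.8% of genes), 1.92 for Ramp2 (90.2%), 1.02 for Ramp3 (70.3%) and 0.33 for Ramp1 (21.5%). Arrays of a group had a pooled SD of 0.11 for Calcr, 0.09 for Calcrl, 0.15 for Ramp1, 0.08 for Ramp2 and 0.17 for Ramp3, against a median of 0.10 over all genes. The median range over all genes was 0.61.

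Calcr was highest in QSCs and fell at every time after injury in both sorts and at both ages. In young VCAM cells its levels were 12, 12.01 and 12.07 in QSCs, 8.45, 8.41 and 8.52 at 36 h, 6.65, 7.02 and 7.01 at 60 h, and 7.03, 7.08 and 7.20 at 84 h. Young YFP cells read 11.53, 11.58 and 11.56 in QSCs, 9.28, 9.36 and 9.41 at 36 h, 7.01, 6.90 and 7.21 at 60 h, and 6.80, 6.90 and 7.11 at 84 h. Old VCAM cells read 11.19, 11.21 and 11.18 in QSCs and 7.89, 7.82 and 7.97 at 60 h. The arrays of all 3 QSC groups lay above every injured array, and the 36 h arrays lay above those of 60 and 84 h. In order of group means, young VCAM QSCs (12.03) came first, then young YFP QSCs (11.56), old QSCs (11.19), YFP cells at 36 h (9.35), VCAM cells at 36 h (8.46) and old cells at 60 h (7.89). The 4 young groups of 60 and 84 h, from 7.10 down to 6.89, overlapped with their neighbours.

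**Figure D1:**
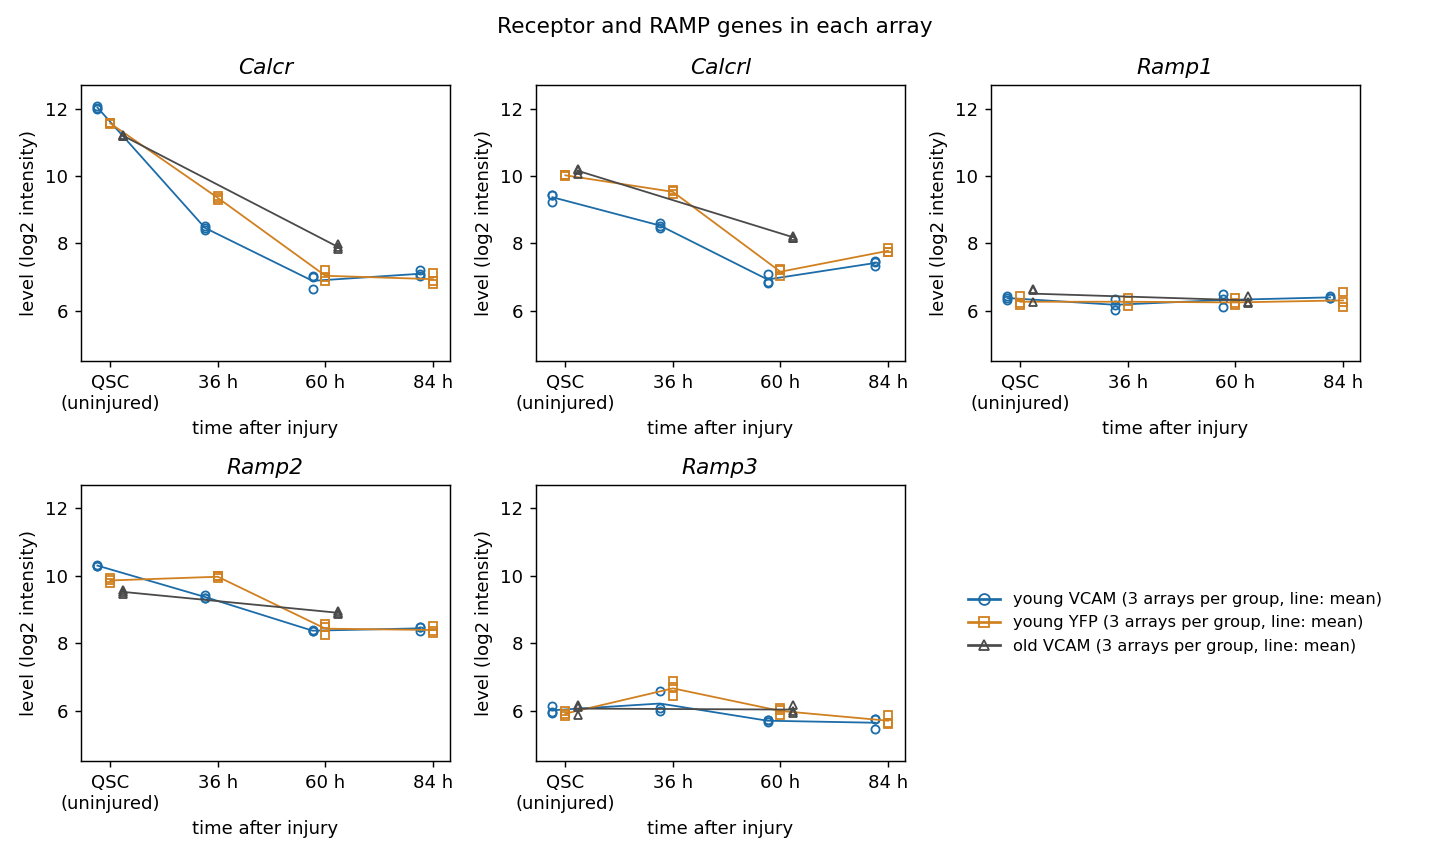
Level (log2 intensity) of each member in each of the 30 arrays, by time after injury, with QSCs at the left. Each point is an array and lines join group means; circles are young VCAM, squares young YFP and triangles old VCAM cells. Calcr fell from 12.03 to 6.89 in young VCAM cells by 60 h, while Ramp1 stayed between 6.02 and 6.66 in all arrays.

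Within each sort and age Calcrl was also highest in QSCs, and its order among the QSC groups was the opposite of that of Calcr. Old QSCs read 10.21, 10.05 and 10.18, YFP QSCs 10.03, 10.01 and 10.02, and young VCAM QSCs 9.22, 9.43 and 9.44. After injury VCAM cells read 8.45, 8.53 and 8.61 at 36 h, 6.85, 6.84 and 7.10 at 60 h, and 7.49, 7.45 and 7.32 at 84 h. YFP cells read 9.58, 9.54 and 9.48 at 36 h, 7.03, 7.20 and 7.24 at 60 h, and 7.76, 7.85 and 7.74 at 84 h. Old cells at 60 h read 8.15, 8.22 and 8.17, above every young array of 60 or 84 h. Along the order of means only the lowest neighbours, YFP (7.16) and VCAM cells (6.93) at 60 h, overlapped. The lowest means were at 60 h in both sorts, with higher values at 84 h.

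Ramp2, the partner with which Calcrl forms an adrenomedullin receptor, was lower at 60 and 84 h than in QSCs in both young sorts. VCAM cells read 10.29, 10.31 and 10.30 in QSCs, 9.34, 9.43 and 9.33 at 36 h, 8.38, 8.37 and 8.37 at 60 h, and 8.36, 8.47 and 8.48 at 84 h. YFP cells read 9.78, 9.87 and 9.92 in QSCs, 9.92, 10 and 10 at 36 h, 8.58, 8.23 and 8.48 at 60 h, and 8.51, 8.37 and 8.30 at 84 h. Old cells read 9.52, 9.58 and 9.46 in QSCs and 8.86, 8.88 and 8.95 at 60 h. In YFP cells the QSC and 36 h arrays overlapped, whereas in VCAM cells they were apart. The 4 young groups of 60 and 84 h overlapped, between means of 8.37 and 8.44.

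Ramp3, the other partner for adrenomedullin, was dim and varied more between arrays. Its highest group was YFP cells at 36 h, with 6.87, 6.43 and 6.69, against 6, 5.85 and 5.89 in YFP QSCs. VCAM cells at 36 h read 6.08, 6.59 and 5.98, of which 1 array lay within the YFP range and the others among the QSC arrays. The remaining groups had means from 5.64 to 6.06, and every neighbour in the order of Ramp3 means overlapped. Ramp1, the partner for calcitonin gene-related peptide, read 6.02 to 6.66 over all 30 arrays, and all neighbours in its order overlapped. Its differences over the 21 comparisons ran from -0.20 to 0.14, with a lowest adjusted p of 0.12 in limma, and none reached an unadjusted p under 0.05.

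The fall of Calcr was mostly complete by 60 h, and the sorts differed at 36 h. Against QSCs, Calcr fell by 3.56 on the log2 scale at 36 h in VCAM cells (SE 0.09, 11.8-fold, adjusted p = 2.2e-22 in limma), and the differences were -5.13 at 60 h (35-fold) and -4.92 at 84 h (30.4-fold). In YFP cells it fell by 2.21 at 36 h (SE 0.09, 4.62-fold, adjusted p = 1.1e-17), and the differences were -4.52 at 60 h (22.9-fold) and -4.62 at 84 h (24.6-fold). Between 36 and 60 h it fell by a further 1.57 in VCAM cells and 2.31 in YFP cells. From 60 to 84 h the differences were 0.21 (95% interval 0.03 to 0.38, adjusted p = 0.073) in VCAM cells and -0.10 (-0.28 to 0.07, adjusted p = 0.38) in YFP cells.

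Calcrl fell in both sorts by 60 h. It fell by 0.83 in VCAM cells at 36 h (SE 0.07, 1.78-fold, adjusted p = 8.3e-11 in limma), and in YFP cells the difference was -0.48 (SE 0.07, 1.4-fold, adjusted p = 1.9e-06), under the fold threshold. At 60 h it fell by 2.43 in VCAM cells (5.4-fold) and 2.86 in YFP cells (7.26-fold), and at 84 h by 1.94 and 2.23. From 60 to 84 h it rose by 0.63 in YFP cells (SE 0.07, 1.54-fold, adjusted p = 6.2e-08). That rise was just over the fold threshold, and without YFP 60 h replicate 1 it was 0.56 and not called. In VCAM cells the same step was 0.49 (adjusted p = 5.2e-06), not called by fold. Whether the step differed between the sorts was not tested.

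Ramp2 at 36 h stood below its QSC level in VCAM cells and near it in YFP cells. In VCAM cells it fell by 0.93 (SE 0.07, 1.91-fold, adjusted p = 2.2e-12 in limma), against a difference of 0.11 (-0.02 to 0.25, adjusted p = 0.17) in YFP cells. At 60 h it fell by 1.92 in VCAM and 1.43 in YFP cells, and at 84 h by 1.86 and 1.47. Ramp3 rose by 0.75 at 36 h in YFP cells (SE 0.13, 1.68-fold, adjusted p = 1.3e-05) and then fell by 0.68 from 36 to 60 h (1.6-fold, adjusted p = 5.0e-05). Without YFP 36 h replicate 1 the latter was -0.57 and not called. In VCAM cells the differences of Ramp3 from QSCs were 0.20 at 36 h (adjusted p = 0.18), -0.31 at 60 h (adjusted p = 0.037) and -0.37 at 84 h (adjusted p = 0.014), all under the fold threshold.

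In counts, 3 of the 5 members were called in VCAM cells at 36, 60 and 84 h against QSCs, all of them lower (Calcr, Calcrl and Ramp2). Of all genes, 23%, 29.2% and 27.6% were called in these comparisons. The same 3 genes were called lower at 60 and 84 h in YFP cells, where 30% and 28.2% of all genes were called. At 36 h in YFP cells 2 of 5 were called, Calcr lower and Ramp3 higher, against 16.3% of all genes. From 36 to 60 h, 3 members fell in VCAM cells (14.8% of all genes called) and 4 in YFP cells (17.3%). From 60 to 84 h, 0 members were called in VCAM cells (3.95% of all genes), where 1 of 5 (Calcrl) passed the adjusted p alone and 2 had an unadjusted p under 0.05. In YFP cells 1 was called, Calcrl (6.86%). The comparisons of 1 sort with its QSCs share the same 3 QSC arrays.

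At 60 h, when Calcr, Calcrl and Ramp2 fell from QSCs, most endothelial and most pericyte and smooth muscle markers fell too. At 36 h 4 of 14 endothelial markers fell and 1 rose in VCAM cells, while in YFP cells 11 rose and 1 fell. At 60 h 13 of 14 endothelial markers fell in both VCAM cells (median -1.72) and YFP cells (median -1.40), and 11 of 14 in old cells (median -1.08). At 84 h 12 of 14 fell in both sorts. Of 12 pericyte and smooth muscle markers, 11 fell in VCAM, 8 in YFP and 7 in old cells at 60 h. The macrophage markers moved the other way, with 15 of 16 higher in both young sorts and 16 of 16 in old cells at 60 h. Of 14 satellite cell markers 10 fell at 60 h in VCAM and in YFP cells and 9 in old cells, while 1 (Itga7) rose in YFP and in old cells. Of 11 fibroblast and fibro-adipogenic markers, 2 rose and 3 fell in VCAM cells, 5 fell in YFP cells, and 3 rose and 3 fell in old cells. The mean endothelial level was 8.81 to 8.84 in VCAM QSC arrays and 7.33 to 7.37 at 84 h, and 8.79 to 8.99 in YFP QSC arrays and 7.46 to 7.49 at 84 h. Their part in these results was not tested.

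**Figure D2:**
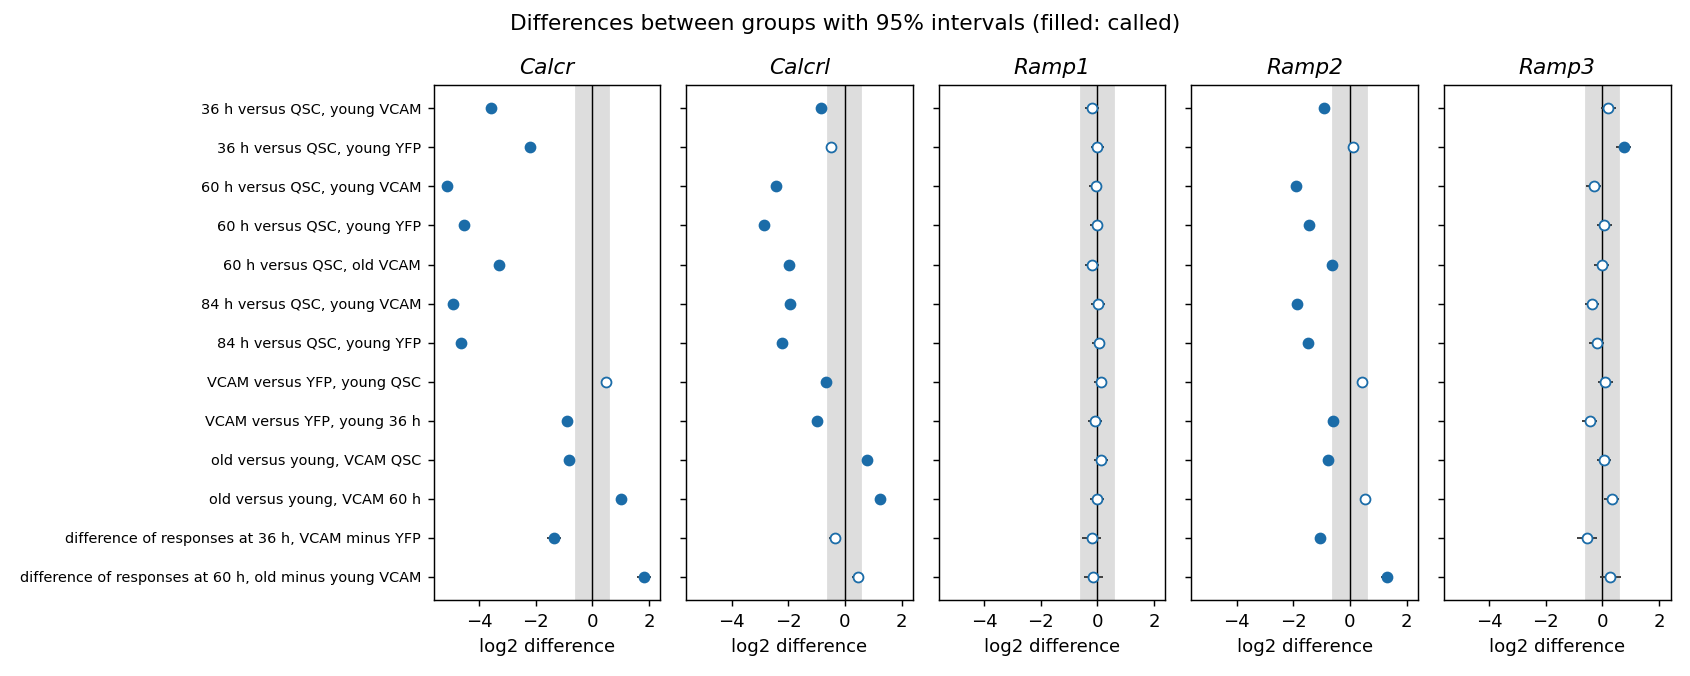
Log2 difference (first group minus second) of each member in 13 comparisons, with 95% intervals from limma, many of them narrower than the point. Filled points are called and the grey band holds folds under 1.5. Calcr lies from -5.13 to -2.21 in all comparisons of injured cells with QSCs, and all Ramp1 points are open.

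The sorts were compared directly at each time in young mice. In QSCs, Calcrl was lower in VCAM than in YFP cells by 0.65 (SE 0.07, 1.57-fold, adjusted p = 5.5e-08 in limma), while Calcr and Ramp2 were higher by 0.47 and 0.44, under the fold threshold. Calcrl was the 1 member called there, against 3.55% of all genes, and without VCAM QSC replicate 1 its difference was -0.58 and not called. At 36 h Calcr (-0.89, adjusted p = 4.1e-09), Calcrl (2-fold, 95% interval -1.15 to -0.86, adjusted p = 1.5e-11) and Ramp2 (-0.61, adjusted p = 4.4e-08) were called lower in VCAM cells, so 3 of 5 against 5.27% of all genes. Ramp3 differed by -0.45 (adjusted p = 0.0058), under the fold threshold. At 60 and 84 h limma called 0 members, against 1.31% and 1.66% of all genes, while 2 and 1 had an unadjusted p under 0.05. At those times Calcrl alone passed the adjusted p without the fold, at -0.23 (adjusted p = 0.037) and -0.36 (adjusted p = 5.0e-04).

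The test of the difference between the responses asks whether the change from QSCs was the same in both sorts. At 36 h it was more negative in VCAM cells for Calcr by 1.36 (SE 0.12, adjusted p = 1.4e-09 in limma) and for Ramp2 by 1.05 (SE 0.09, adjusted p = 1.8e-09), so 2 of 5 members were called against 9.09% of all genes. At 60 h Calcr alone was called, at -0.61 (SE 0.12, adjusted p = 3.7e-04), against 4.99% of all genes. That value stood at the fold threshold: it was -0.49 without VCAM 60 h replicate 1 and -0.53 without YFP 60 h replicate 3, both not called. Without YFP 60 h replicate 2, Ramp2 was called as well, at -0.59. At 84 h 0 members were called, against 6.56% of all genes, while 2 of 5 (Calcrl and Ramp2) passed the adjusted p alone and 3 had an unadjusted p under 0.05. For Calcrl the differences of responses were -0.35 at 36 h, 0.43 at 60 h and 0.29 at 84 h, with adjusted p of 0.0085, 0.0022 and 0.032, all under the fold threshold.

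Marker lists also differed between the sorts. At 36 h all 14 endothelial markers were lower in VCAM than in YFP cells. Their mean level was 8.47 to 8.56 in the VCAM arrays and 9.65 to 9.68 in the YFP arrays, against 8.81 to 8.84 and 8.79 to 8.99 in the QSC arrays of each sort. Pecam1, which encodes the CD31 that the VCAM sort selects against, read 9.57 in VCAM QSCs, 9.59 in VCAM cells at 36 h and 10.98 in YFP cells at 36 h. In YFP cells at 36 h, where Ramp3 rose, 11 of 14 endothelial markers rose and 1 fell, while in VCAM cells 1 rose and 4 fell. None of the 14 had a group mean under 6 in any group. The 16 macrophage markers had a mean of 9.73 to 9.86 in VCAM and 9.28 to 9.29 in YFP arrays at 36 h, and 6 of them were called higher in VCAM cells. Ptprc, the gene of CD45, went from 6.24 in QSCs of both sorts to 9.05 and 9.21 at 36 h. Satellite cell markers were lower in VCAM cells at 36 h for 9 of 14, with means of 10.35 to 10.40 against 11.08 to 11.09. In QSCs, where Calcrl differed, 0 of 14 endothelial and 0 of 16 macrophage markers were called. There 7 of 12 pericyte and smooth muscle markers were higher in VCAM cells, with means of 9.99 to 10.06 against 9.10 to 9.15. Of 14 satellite cell markers, 2 were higher in VCAM QSCs and 0 lower. Of 11 fibroblast and fibro-adipogenic markers, 5 were higher and 1 (Dpt) lower in VCAM than in YFP cells at 36 h. Their means were 10.64 to 10.70 against 10.05 to 10.08, and 1 (Col1a1) was higher in QSCs. By the test of the responses at 36 h, all 14 endothelial markers had a more negative change in VCAM cells. So did 10 of 12 pericyte and smooth muscle and 9 of 14 satellite cell markers, against 9.09% of all genes called. For 7 of 16 macrophage and 4 of 11 fibroblast markers the change was more positive, and for 1 fibroblast marker (Dpt) more negative. Their part in the results was not tested.

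**Figure D3:**
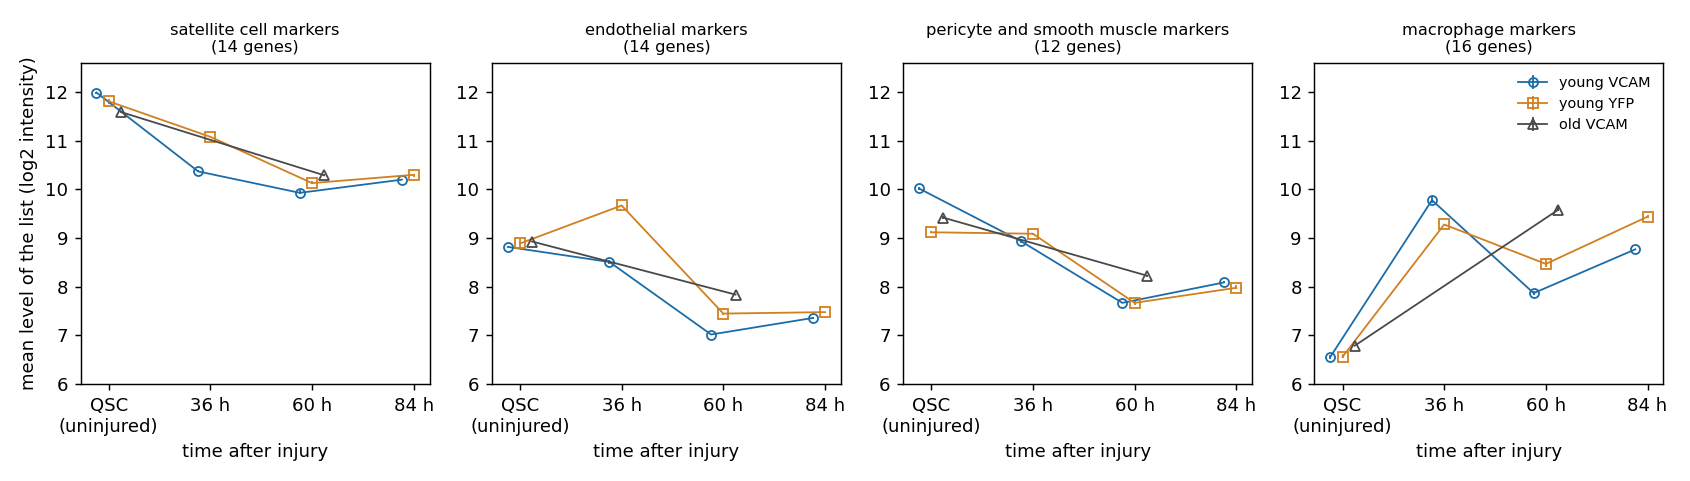
Mean level (log2 intensity) of 4 marker lists by time after injury. Points are means of 3 arrays, bars (mostly within the points) run from the lowest to the highest array, and colours are as for the members. The endothelial mean was 9.67 in YFP cells at 36 h and 8.51 in VCAM cells. The macrophage mean was highest at 36 h in young VCAM cells, at 9.78.

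Old and young VCAM cells were compared to see what age changed in quiescence and in activation. In old QSCs Calcr was lower by 0.83 (SE 0.09, 1.78-fold, adjusted p = 8.8e-09 in limma) and Ramp2 by 0.78 (SE 0.07, 1.72-fold, adjusted p = 3.8e-10). Calcrl was higher by 0.78 (SE 0.07, 1.72-fold, adjusted p = 1.1e-09). For these 3 members the old and young arrays did not overlap, and 3 of 5 called compares with 7.74% of all genes. At 60 h Calcr was higher in old cells by 1.00 (SE 0.09, 2-fold, adjusted p = 4.3e-10) and Calcrl by 1.25 (SE 0.07, 2.38-fold, adjusted p = 1.3e-13). These were 2 of 5 members, against 5.41% of all genes. Ramp2 was higher by 0.52 (adjusted p = 6.4e-07) and Ramp3 by 0.33 (adjusted p = 0.053), neither called. Calcr thus went from below to above the young level between QSCs and 60 h, and Calcrl was above it at both.

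The response to injury of Calcr and Ramp2 differed with age. From QSCs to 60 h in old cells Calcr fell by 3.30 (9.85-fold), Calcrl by 1.97 (3.91-fold) and Ramp2 by 0.62 (1.54-fold), so 3 of 5 members were called against 29.5% of all genes. The young falls, with their own QSC arrays, were 5.13, 2.43 and 1.92. The old response was less negative for Calcr by 1.83 (SE 0.12, adjusted p = 5.4e-12 in limma) and for Ramp2 by 1.30 (SE 0.09, adjusted p = 3.5e-11), which made 2 of 5 called against 8.97% of all genes. For Calcrl the difference was 0.47 (0.26 to 0.68, adjusted p = 6.4e-04), under the fold threshold.

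Cell type markers differed with age too. At 60 h 9 of 14 endothelial markers were higher in old cells and 0 lower, with means of 7.83 to 7.84 against 7 to 7.03 in young arrays. All 16 macrophage markers were higher, at 9.55 to 9.63 against 7.84 to 7.92, and 6 of 12 pericyte and smooth muscle markers, at 8.21 to 8.25 against 7.66 to 7.68. Of 14 satellite cell markers 3 were higher at 60 h (Chodl, Chrdl2 and Cd34). In QSCs 0 of 14 endothelial markers and 1 of 16 macrophage markers (Cd68) were called with age, while 7 of 12 pericyte and smooth muscle markers and 3 of 14 satellite cell markers were lower in old cells. Of 11 fibroblast and fibro-adipogenic markers, 5 were higher (among them Smoc2, Lum and Pdgfra) and 3 lower in old QSCs, with means of 9.93 to 9.97 against 9.67 to 9.70. At 60 h 7 of the 11 were higher in old cells and 0 lower, at 9.86 to 9.87 against 9.07 to 9.13. The old and young responses at 60 h differed for 8 of 14 endothelial and 15 of 16 macrophage markers, against 8.97% of all genes. They also differed for 10 of 12 pericyte and smooth muscle and 8 of 14 satellite cell markers. All of these had the higher value in old cells. Of the 11 fibroblast and fibro-adipogenic markers, 4 had the higher value in old cells and 1 the lower. Their part in the results was not tested.

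Among the ligands, Adm (adrenomedullin) was the 1 gene called in any comparison. It read 8.97, 8.93 and 9.07 in VCAM QSCs, 9.52, 9.46 and 9.50 at 36 h, 7.97, 7.90 and 8.24 at 60 h, and 8.16, 7.96 and 8 at 84 h. YFP cells read 8.60, 8.70 and 8.68, then 9.18, 9.16 and 9.12, then 8.63, 8.75 and 8.67, and 8.08, 7.81 and 7.97 at the same times. Old cells read 8.93, 8.75 and 8.92 in QSCs and 9.16, 9.13 and 9.20 at 60 h. Both young sorts were above their QSC arrays at 36 h, by 0.50 and 0.49, under the fold threshold. Adm fell by 0.95 at 60 h in VCAM cells (SE 0.08, 1.94-fold, adjusted p = 1.3e-11 in limma), whereas the difference was 0.02 (adjusted p = 0.82) in YFP cells and 0.30 (adjusted p = 0.0012) in old cells. The responses at 60 h differed by -0.97 between the sorts (adjusted p = 1.3e-07) and by 1.25 between old and young (adjusted p = 7.1e-10). By 84 h Adm had fallen in both sorts, by 0.95 and 0.71. At 60 h it was 1.13 higher in old than in young VCAM cells (2.18-fold, adjusted p = 3.6e-12).

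The other ligands stayed within narrow ranges. Adm2, which encodes a further peptide of this family, read 6.53 to 7.22 over the 30 arrays, Calcb, encoding the beta form of calcitonin gene-related peptide, 5.71 to 6.57, and Iapp, encoding amylin, 4.91 to 5.37. None of the 3 was called in any of the 21 comparisons. Calca, which encodes calcitonin and the alpha form of calcitonin gene-related peptide, had no probe set of its own in the table used.

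**Figure D4:**
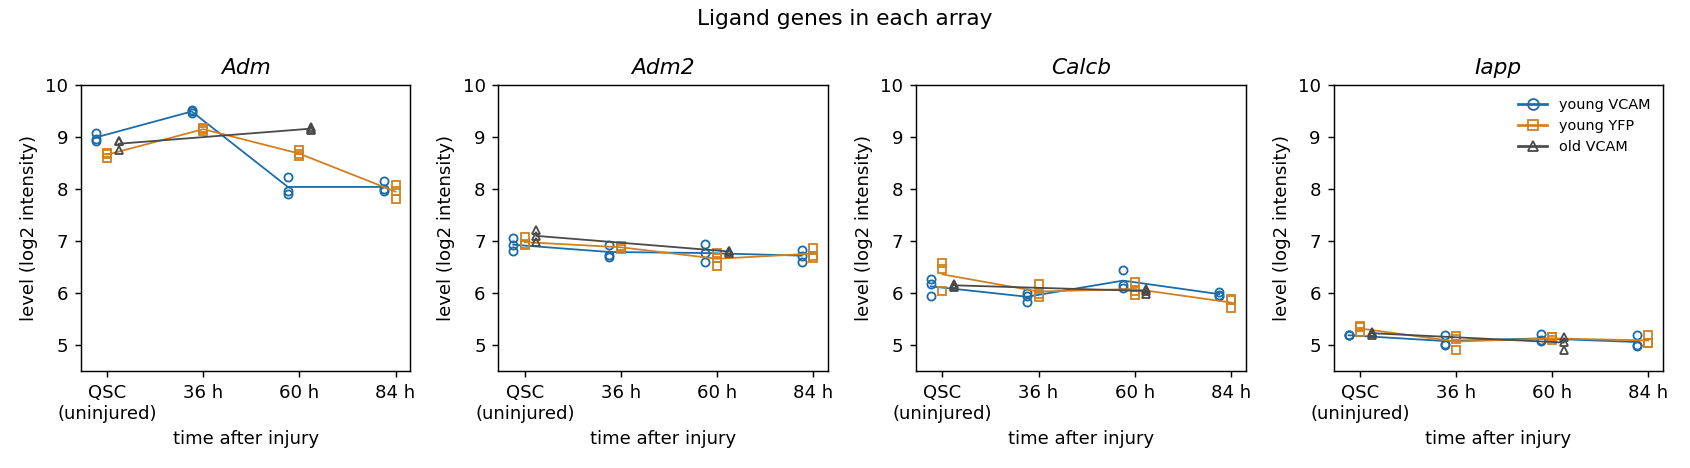
Level (log2 intensity) of 4 ligand genes in each array by time after injury, with points, lines and colours as for the members. Adm was lower at 60 h in young VCAM cells (mean 8.04) than in YFP (8.68) and old cells (9.16), and the others varied little.

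Genes that bind or desensitise such receptors moved both ways at 60 h. Of 6 tested, 3 rose and 3 fell in VCAM cells against QSCs, where 29.2% of all genes were called. Crcp, named as a component of the receptor for calcitonin gene-related peptide, rose by 0.99 on the log2 scale in VCAM, 0.64 in YFP and 0.69 in old cells (adjusted p = 7.8e-10, 1.7e-06 and 5.6e-07 in limma). Arrb1, encoding a beta-arrestin, which uncouples activated receptors, fell by 1.94, 1.51 and 0.87 in the same groups. The other beta-arrestin gene, Arrb2, rose in all of them. Its means went from 7.56 to 8.27 in VCAM, 7.44 to 8.33 in YFP and 7.56 to 8.25 in old cells. The kinase gene Grk6 rose by 1.32, 1.05 and 1.07. Arrb1 was 1.03 and Grk5 0.84 higher in old than in young cells at 60 h (adjusted p = 3.3e-08 and 2.3e-09). Both also differed between old and young responses, by 1.07 and 0.62 (adjusted p = 4.7e-06 and 6.5e-05).

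In the cAMP and protein kinase A list more genes fell than rose at 60 h. In VCAM cells at 60 h, 16 of 36 tested genes fell and 2 rose, with a list median of -0.40 against -0.035 for all genes. In YFP cells 12 fell and 1 rose (median -0.31, all genes -0.034), and in old cells 16 fell and 4 rose (-0.40, all genes -0.106). The shares of all genes called at 60 h were 29.2% in VCAM, 30% in YFP and 29.5% in old cells. The phosphodiesterase genes Pde7b and Pde3a, whose products break down cyclic nucleotides, fell most. Pde7b fell by 4.63, 4.35 and 2.90 in VCAM, YFP and old cells, and Pde3a by 3.78, 3.66 and 2.35. Adcy2, an adenylyl cyclase gene, fell by 2.96, 2.70 and 2.01. Prkar2b, a regulatory subunit of protein kinase A, rose by 1.96, 2.53 and 2.28. With age at 60 h, 6 of the 36 were higher and 1 lower, among them Pde7b (1.06) and Pde3a (0.99) higher and Prkar2b (-0.67) lower. In QSCs with age, 2 were higher and 3 lower, with Pde7b at -0.66 and Prkar2b at -0.99. The old and young responses differed for 8 of the 36, all with the higher value in old cells. The shares of all genes called were 5.41% with age at 60 h, 7.74% with age in QSCs and 8.97% for the responses. The comparisons of responses share their QSC and 60 h arrays with those of Calcr above.

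Of 8 tested genes of the Gq and phospholipase C route, through which the receptors can also signal, 2 fell in VCAM cells at 60 h, 3 fell and 1 rose in YFP cells, and 3 fell and 1 rose in old cells. Itpr2, an intracellular calcium channel, fell by 2.24, 2.26 and 1.69. Among 17 genes of the Lats and Yap list, a route downstream of protein kinase A, 7 fell and 4 rose in VCAM cells, 6 fell and 4 rose in YFP cells, and 6 fell and 3 rose in old cells. These counts of called genes stand beside the 29.2%, 30% and 29.5% of all genes called in the 3 comparisons, and the 2 of 8 Gq genes called in VCAM cells are near that share. Ccn2, a transcriptional target of Yap, fell by 2.63, 3.66 and 1.11, and Tead2, a partner of Yap, rose by 1.71, 2.19 and 1.27. Another Tead gene, Tead3, fell in the same groups. Its means went from 9.23 to 7.79 in VCAM, 9.42 to 7.86 in YFP and 9.82 to 7.79 in old cells.

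Collagen V and the Notch effectors were listed because collagen V, a Notch target, is known as a ligand that acts through Calcr in satellite cells. Of 11 genes, 9 fell at 60 h in both VCAM cells (median -1.12) and YFP cells (median -0.80), and 6 fell in old cells (median -0.78). The shares of all genes called at 60 h were 29.2%, 30% and 29.5%. Of the collagen V genes, Col5a1 and Col5a3 fell in both young sorts, and none fell in old cells. Col5a2 was not called at 60 h in the young sorts. Its means in QSCs and at 60 h were 10.28 and 10.21 in VCAM cells, and 10.49 and 10.26 in YFP cells. At 36 h it rose in VCAM cells, to 11.21. Heyl, a Notch target gene, fell by 3.08, 1.95 and 1.65. In old QSCs 4 of the 11 were lower than in young, against 7.74% of all genes called, with Heyl at -1.34 and Hes1 at -1.22. These 4 were Heyl, Hes1, Hey1 and Hey2, and no collagen V gene was called there. The responses differed with age for 7 of the 11, against 8.97% of all genes, all 7 with the higher value in old cells. Of 13 other class B receptor genes, 0 were called at 60 h in VCAM or YFP cells (medians -0.18 and -0.21), and 1 (Sctr, the secretin receptor, -0.59) in old cells. The 13 genes had means from 5.48 to 7.84 in VCAM QSCs, so the dimmer ones had little room to fall. Over the 13 genes and 21 comparisons, 11 of 273 pairs were called. The share of all genes called in these comparisons ran from 1.31% to 30%. Vipr2, a receptor for vasoactive intestinal peptide, was 0.95 higher in old QSCs (adjusted p = 3.8e-09 in limma). It also rose from QSCs to 84 h, from 7.14 to 8.04 in VCAM and from 7.16 to 8.35 in YFP cells.

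**Figure D5:**
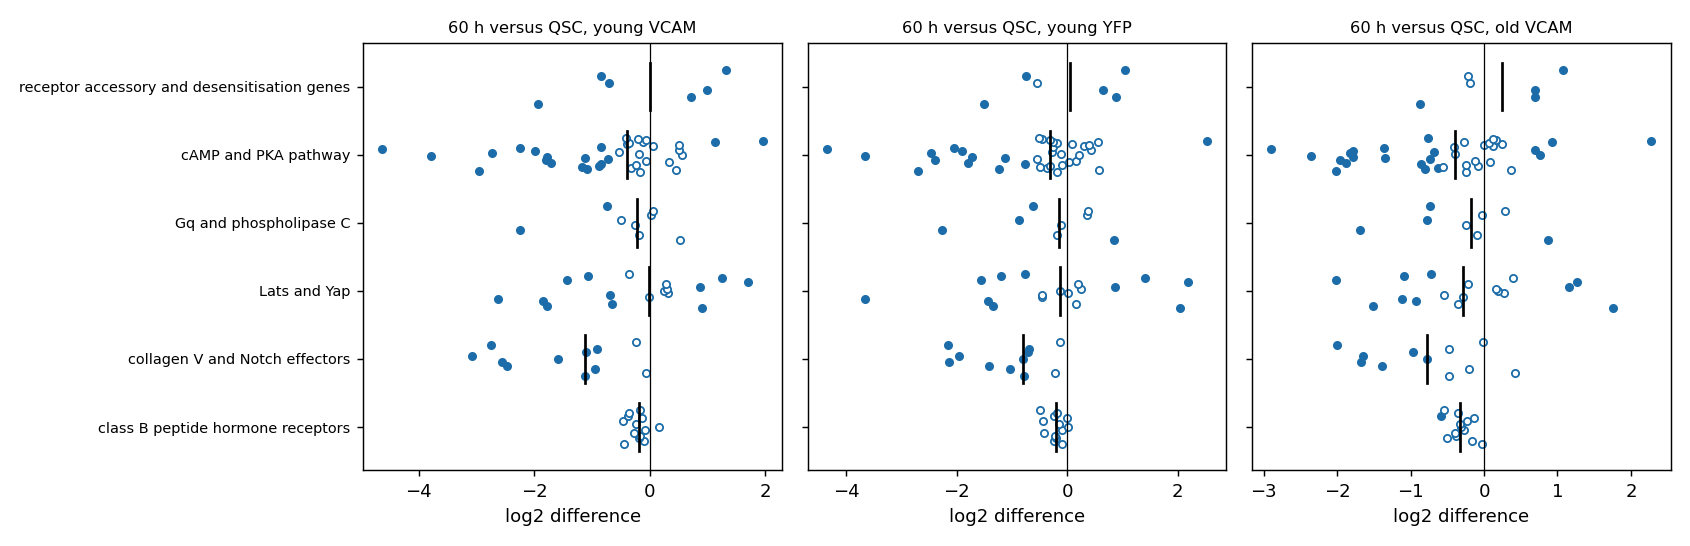
Log2 difference from QSCs at 60 h for each gene of 6 lists, in young VCAM, young YFP and old VCAM cells. Each point is a gene, filled where called, and vertical bars mark list medians. The class B receptors lie near 0, while in VCAM cells 16 of 36 genes of the cAMP and PKA pathway fell.

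The members were also compared by the shape of their patterns over the 10 group means, as a description. Groups share sorts, times and ages, so these points are not independent. Pearson's r was 0.92 between Calcr and Calcrl, 0.91 between Calcr and Ramp2, 0.89 between Calcrl and Ramp2, and 0.64 between Ramp2 and Ramp3. The satellite cell marker mean had r of 0.98 with Calcr, 0.91 with Calcrl and 0.89 with Ramp2. The endothelial mean had r of 0.80 with Calcr, 0.92 with Calcrl, 0.93 with Ramp2 and 0.80 with Ramp3. The lymphatic endothelial mean had r of 0.93, 0.96 and 0.93 with Calcr, Calcrl and Ramp2, the pericyte and smooth muscle mean 0.93, 0.89 and 0.95, and the Schwann cell mean 0.98, 0.94 and 0.92. With the macrophage mean r was -0.74, -0.50 and -0.46, and with the fibroblast mean 0.37, 0.52 and 0.55. Of the 5 lymphatic genes tested, Prox1 and Pdpn fell at 60 h in VCAM, YFP and old cells, and the others were not called. Of the 6 Schwann cell genes tested, 3 fell at 60 h in VCAM and in YFP cells and 2 in old cells.

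Among 6061 genes (the gene itself left out) whose group means spanned at least 1, those most like Calcr were Dusp16 (r = 0.998), Dusp8 (0.997), Maff (0.997), Sorl1 (0.997) and Tmtc2 (0.996). Those most like Calcrl were Litaf (0.991), Ralgds (0.990), Fyn (0.989), Sqor (0.989) and Pmepa1 (0.988). Those most like Ramp2 were Jarid2 (0.983), Pcp4l1 (0.979), Tagln (0.974), Col4a1 (0.973) and Lamc1 (0.972). For Ramp3 they were Kit (0.950), Sema3f (0.945), Bcl6b (0.937), Adam15 (0.931) and Erg (0.931). Ramp1, with its narrow range, had no gene above 0.869 (Zfpm2).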

How the data were processed

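RNA of 30 sorted samples, in 10 groups of 3, was measured on Affymetrix Mouse Gene 1.0 ST arrays from 100 ng of total RNA. Per the submitters' processing notes, the authors produced the deposited log2 intensities with Affymetrix Expression Console and RMA (versions not given in the sources used here). RMA corrects background and quantile-normalizes, which can mute shifts shared by most genes. The table holds 35556 probe sets (2.99 to 15.11), with array medians of 7.03 to 7.16 and correlations within groups of 0.9960 to 0.9983. The number of arrays limits the precision.

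Probe sets were named through the platform annotation: 21789 had 1 symbol, 1621 several (left out) and 12146 none. The brightest stood for each of 999 genes with several, leaving 19938 genes. No column of sample values was left unused. Groups came from the sample titles.

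Linear models (limma 3.58.1, R 4.3.3, lmFit and eBayes, a mean per group, all 30 arrays) were tested in 21 comparisons, two-sided, with Benjamini-Hochberg adjustment over all genes within each comparison, and checked on simulated data. Genes were called at an adjusted p under 0.05 and a fold of at least 1.5. The members and gene lists were chosen with earlier results of these data known. Named were all members and ligands, and up to 4 called genes with the largest change per list and comparison. Up to 5 markers per cell type and the 5 genes most like each member were also named. Alternatives were 2 scalings of the arrays, eBayes with trend and robust, the arrays compared alone, the mean of all probe sets, genes with a highest group mean of at least 6, other fold thresholds, a replicate block and leaving out each array. Promoter windows came from RefSeq (GRCm38.p6).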

Additional observations from a re-analysis of the deposited data

Results flagged for a closer look

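Changes from QSCs that differed between groups by a test of the difference itself (limma, over all genes) were seen for Calcr and Ramp2. At 36 h the change in VCAM cells was more negative than in YFP cells, by -1.36 for Calcr and -1.05 for Ramp2. At 60 h the difference between the sorts was -0.61 for Calcr. Between old and young VCAM cells at 60 h it was 1.83 for Calcr and 1.30 for Ramp2. The sorts differ in mouse genotype and in the tamoxifen given to the YFP mice as well as in the sorted markers, so these cannot be told apart.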

How the results depend on the processing

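Over 105 pairs of member and comparison, 42 were called and none of these changed sign under any of the alternatives named above. Of 1695 refitted values, 50 changed a sign, in 21 pairs with values between -0.09 and 0.12. Of the differences discussed, Ramp2 changed sign between 84 and 60 h in VCAM cells with arrays centred on their medians (-0.02) and, on leaving out 1 array, in YFP cells (-0.14 to 0.04, above 0 without YFP 60 h replicate 1 or YFP 84 h replicate 3) and between the sorts at 60 h (-0.15 to 0.02, above 0 without YFP 60 h replicate 1) and at 84 h (-0.00 to 0.11, below 0 without YFP 84 h replicate 3).

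Counts of called members moved most with the fold threshold. At a fold of at least 2, 1 was left at 36 h in each sort, between the sorts at 36 h and with age at 60 h, and 0 from 60 to 84 h in YFP cells, between the sorts in QSCs, with age in QSCs and in the difference of responses of the sorts at 60 h. With no fold threshold the counts were 1 from 60 to 84 h in VCAM cells, 3 between the sorts in QSCs, 1 at 60 h and 1 at 84 h, and for the differences of their responses 4 at 36 h, 3 at 60 h and 2 at 84 h. Centring left 0 from 60 to 84 h in YFP cells and 0 in the 60 h difference of responses of the sorts. Further quantile normalization left 0 in the former and 0 between the sorts in QSCs. Leaving out 1 array gave 0 to 1 from 60 to 84 h in YFP cells (0 without YFP 60 h replicate 1), 0 to 1 between the sorts in QSCs (0 without VCAM QSC replicate 1) and 0 to 2 in the 60 h difference of responses (0 without VCAM 60 h replicate 1 or YFP 60 h replicate 3, 2 without YFP 60 h replicate 2). For 60 against 36 h in VCAM cells the median over all genes was 0.002 as deposited and 0.113 after centring. The cause of these shifts was not tested beyond what each setting changes.

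Of 135 same-numbered pairs of arrays from different groups, 27 had deviations from their group means correlated over 0.1. The mean correlation was 0.035 for same-numbered and -0.018 for other-numbered pairs. These values do not decide whether replicate numbers pair the arrays. With the replicate number as a block all 105 pairs kept their call (Calcr at 60 h in VCAM cells -5.13 in the fit with the replicate block).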
